A study of Mus musculus with 2 samples.

Results

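This account covers 10 genes of the Wnt pathway in mouse embryonic fibroblasts. They are the ligands Wnt11, Wnt4, Wnt5a, Wnt5b and Wnt9a, the receptors Fzd1, Fzd2 and Fzd7, the secreted inhibitor Sfrp1 and the target gene Axin2. They were chosen by symbol, as every array feature that carries the name of one of them, and they are 10 of the 28233 named genes on the array, read by 13 of its 39429 features. A feature is a sequence of 60 bases printed on the glass that binds the labelled RNA of its gene. Of the 10 genes, 7 have 1 feature and 3 (Fzd2, Fzd7 and Axin2) have 2 features.

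The study asked which genes that respond rapidly to serum need THOC5, a subunit of the THO complex that couples transcription to mRNA processing and export. All cells were immortalized fibroblasts of the background C57BL/6 x B6:129 Ola with both Thoc5 alleles flanked by loxP sites and a Cre recombinase fused to a tamoxifen-responsive estrogen receptor (ERT2) expressed from the Rosa26 locus. The control cells, labelled wildtype, carry the same alleles without tamoxifen, and the THOC5-depleted cells, labelled THOC5 knockdown, had 2 days of tamoxifen by the labels. The cell culture section of the study's methods gives a shorter exposure followed by growth medium, while its methods for chromatin precipitation give 2 days. Each condition was read on 1 dual-color Agilent array, on which Cy3 carried total RNA of unstimulated, serum-starved cells and Cy5 that of cells given fetal calf serum for 1 h. With 1 array for each condition, no p-value is given and no difference has a replicate check among these arrays. For Wnt11 the study also reports RT-PCR from independent experiments, with no rise of its mRNA after serum when THOC5 was depleted. Loss of THOC5 cannot be told apart from tamoxifen and Cre activity themselves, from the culture, or from the position on the slide, nor can the number of expressing cells be told apart from the RNA in each cell.

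Wnt proteins are secreted, lipid-modified ligands that act on neighbouring cells through frizzled receptors. In the branch that runs through beta-catenin, binding of a ligand stops the destruction of beta-catenin, which then activates target genes together with TCF/LEF factors, and Axin2 is a widely used marker of that activity. Other branches steer cell polarity and movement without beta-catenin, and Wnt5a and Wnt11 are their best known ligands. Fibroblasts and other mesenchymal cells both make and receive Wnt signals.

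Sequences before gene starts and of array features are shown first, and no signal or ratio below was computed from them. Wnt11 and Wnt9a were the ligands with the higher signal after serum in control cells, so the 250 bases before their first annotated start are given, from RefSeq on the build GRCm38.p6 and on the strand of the gene. In the Wnt11 window (chr7:98834862-98835111, + strand), capitals mark, from left to right, both copies of a cyclic AMP response motif, then a TCF/LEF motif and then a TATA box, each spelled out in the next paragraph. In the Wnt9a window (chr11:59306680-59306929, + strand) none of the motifs searched was found.
Wnt11: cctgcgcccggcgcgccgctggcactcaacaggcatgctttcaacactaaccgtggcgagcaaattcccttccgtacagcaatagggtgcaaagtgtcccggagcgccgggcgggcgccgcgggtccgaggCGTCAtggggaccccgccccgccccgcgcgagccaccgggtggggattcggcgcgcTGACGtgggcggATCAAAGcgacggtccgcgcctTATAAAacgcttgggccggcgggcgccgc
Wnt9a: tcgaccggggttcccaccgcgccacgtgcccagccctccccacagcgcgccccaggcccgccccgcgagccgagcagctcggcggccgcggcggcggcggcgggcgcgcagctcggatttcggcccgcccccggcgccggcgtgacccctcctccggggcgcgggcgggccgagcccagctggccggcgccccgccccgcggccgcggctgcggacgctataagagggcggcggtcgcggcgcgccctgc

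In the Wnt11 window the TATA box (TATAAA, searched on the strand of the gene) lay 29 to 24 bases before the start. The TCF/LEF motif (CTTTGAA or CTTTGAT, both strands) matched as ATCAAAG from 51 to 45 bases before it. The short motif of cyclic AMP response elements (TGACG, both strands) matched from 63 to 59 and, on the opposite strand, from 119 to 115 bases before it. Among all 32851 windows of this length, 7.59% held TATAAA, 7.48% the TCF/LEF motif and 17.8% TGACG. RefSeq windows were matched by symbol for 7 of the 10 genes (Wnt11, Wnt4, Wnt5b, Wnt9a, Fzd1, Fzd7 and Axin2), with 10 windows in all. TATAAA was in 2 of these 10, the Wnt11 window shown and the Fzd1 window. The TCF/LEF motif was in 2, the Wnt11 window shown and 1 of the 3 Wnt5b windows. TGACG was in 2, both of Wnt11, while the full palindromic element, which contains it, was in 0 of the 10, against 1.55% of all windows. The AP-1 motif (TGACTCA or TGAGTCA) was in 1, a Wnt5b window, against 4.46% of all windows, and the CArG box of serum response factor was in 0 of the 10, against 1.47%. These letter matches are descriptions of the windows, not binding sites.

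Features bind at different places along a transcript, which matters where a gene has 2 of them. The first 30 bases of the features named most often below are given as the array file has them. The Wnt11 feature begins at base 1515 of its transcript, the Fzd2 features at bases 1868 and 3300, and the main Axin2 feature at base 4196.
Wnt11 at 1515: gaaactgataggattaaaaataacctggca
Fzd2 at 1868: tcacagtctacatgatcaaatacctcatga
Fzd2 at 3300: cgtgacattctatatcataagatattgata
Axin2 at 4196: cttggtacaataattattgtaattaagaga

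The signal used is the intensity that the scanner software writes after subtracting background and balancing the dyes within an array, in arbitrary linear units. A signal depends on the binding of its feature as well as on the RNA, so genes are compared by their ratios and not by their signals. Marker lists were read by whether they lay above background, and their sums are set against each other only across channels. The serum ratio is Cy5 over Cy3 on 1 array, given as log2, so that 1 is a doubling. Serum was Cy5 on both arrays and no array had the dyes exchanged, so a serum ratio cannot be told apart from a dye effect of its feature. THOC5-depleted cells were compared with control cells, channel by channel, after the mean signals of the arrays had been brought to 1 distribution (limma, Aquantile). Each log2 value carries the error that the software estimates from its error model, which was 0.20 to 0.39 for members measured in both channels. It covers technical error within an array only. The spread seen between repeated spots was smaller, with a median SD of 0.03 on each array over the 399 features printed as 10 spots. It was taken only over spots that were well above background in both channels and not outliers, while each member feature is 1 spot.

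Of the 13 member features, 11 were well above background in all 4 channels, none was marked as an outlier on either array and none was saturated. Thoc5, the deleted gene, differed by -2.82 on the log2 scale in Cy3 and by -2.43 in Cy5, lower in the library labelled THOC5 knockdown. All 10 fibroblast markers checked (among them Vim, Col1a1 and Fn1) were well above background in every channel, with a summed signal of 409575 to 529839. Not all were level between conditions: unstimulated Pdgfra read 1269 in control cells against 435 after THOC5 depletion, and Col3a1 45649 against 17481, before scaling between arrays. Of the 5 epithelial markers (sum 126 to 226), 3 (Krt8, Krt18 and Krt5) were well above background in all channels and Cdh1 in none. Epcam was well above it only in control cells (32.1 and 32.6, against 5.32 and 6.44 after THOC5 depletion). Of the 5 blood markers (sum 251 to 315), 1 was well above background in all channels, Cd3e at 196 to 276. Ptprc (9.50 and 5.58, against 14.4 in both) and Cd68 (11.6 and 11.8, against 24.6 and 25.96) were so only in THOC5-depleted cells. Of the 4 endothelial markers (sum 887 to 1136), 3 (Pecam1, Cdh5 and Kdr, the last at 805 to 1015) were well above background in all channels and Tek in none. Cdh5 read 42.7 and 50.7 in control cells, against 21.7 and 21.1 after THOC5 depletion. Of the 2 pluripotency markers (sum 131 to 152), Nanog (122 to 148) was well above background in all channels and Pou5f1 only in unstimulated THOC5-depleted cells (14.9). The part of these marker differences in the results below was not tested. Spike-in RNAs, added to the labelling reactions of both arrays, had a mean log2 ratio that was 0.24 higher for THOC5-depleted than for control cells.

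**Figure D1:**
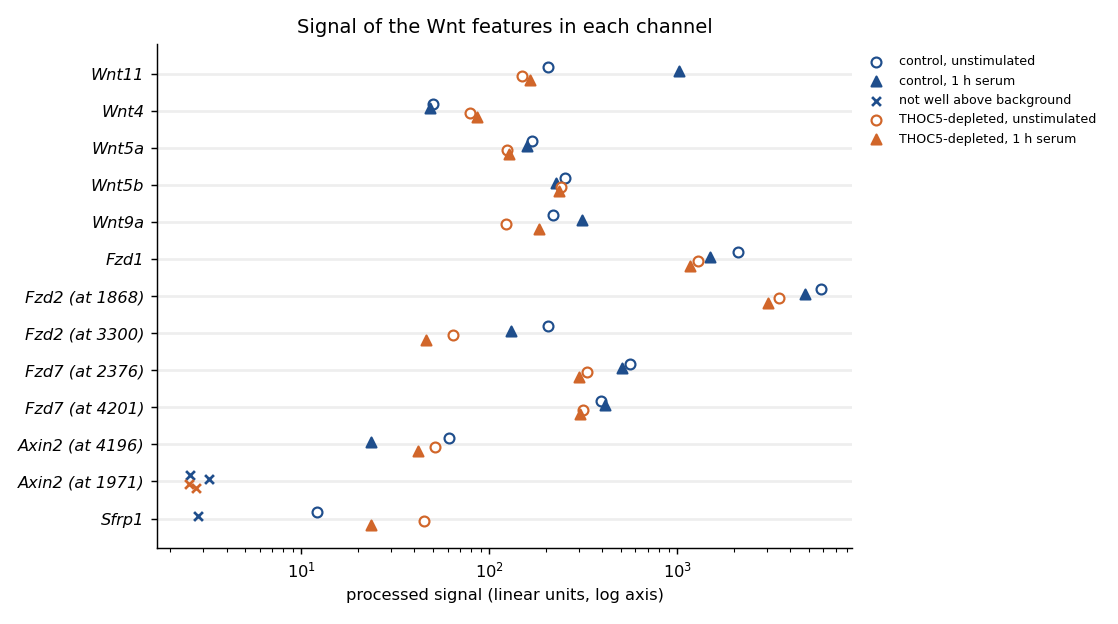
Processed signal of each of the 13 features (log axis, linear intensity units) in the 4 channels, with control cells in blue, THOC5-depleted cells in orange, open circles for unstimulated cells and filled triangles for 1 h of serum. Crosses are not well above background, and numbers in brackets give the base of the transcript at which a feature begins. The stimulated control signal of Wnt11 (1017) stands apart from its other 3 values (149.9 to 207).

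Wnt11, a ligand known for the branches without beta-catenin, had the largest serum ratio of the 10 genes in control cells and almost none in THOC5-depleted cells. Its feature lies on chromosome 7 of mm9, from 106001985 to 106002045. In control cells the signal was 207 unstimulated and 1017 after serum. In THOC5-depleted cells it was 149.9 unstimulated and 164 after serum. The stimulated control channel is the high one and the other 3 lie close together.

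The log2 serum ratio of Wnt11 was 2.30 ± 0.29 (software error) in control cells, a ratio of 4.92, and 0.13 ± 0.21 in THOC5-depleted cells, a ratio of 1.10 that is smaller than its error. The control ratio was thus 4.49-fold the depleted one, a log2 difference of 2.17 ± 0.36. Between conditions, unstimulated Wnt11 signal differed by -0.23 ± 0.21 on the log2 scale, close to the error. Stimulated Wnt11 signal was 5.25-fold lower in THOC5-depleted cells (-2.39 ± 0.21). In the serum ratio of control cells Wnt11 ranked 89th from the top among the 18508 genes with a value. In the ratio of the serum ratios it ranked 18th of 17192, and in stimulated THOC5-depleted over control cells it was the 22nd lowest of 18643. Wnt11 was 1 of 93 genes (0.495% of those tested) with a Cy5 signal above 200 and a control ratio that exceeds 4 once rounded to 1 decimal. These are conditions of the filter in the study's methods, whose further condition on annotation in Ingenuity Pathway Analysis was not applied here.

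Among the 17192 genes that were well above background in all 4 channels, 77 (Wnt11 included) had a control serum ratio at least as high as that of Wnt11, and 6 of these, Wnt11 among them, had a ratio in THOC5-depleted cells no higher than its own. The 5 genes nearest to Wnt11 in the plane of both log2 serum ratios, by Euclidean distance over these 2 arrays, were Ret, Agbl3, 5830403F22Rik, LOC100045823 and Sphk1. Ret, a receptor tyrosine kinase, lay at a distance of 0.12 and its control ratio was 5.31 against 1.13 after THOC5 depletion. Sphk1, the kinase that makes sphingosine 1-phosphate, lay at 0.24 with ratios of 4.89 and 1.30. Agbl3 had ratios of 5.26 and 0.993.

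**Figure D2:**
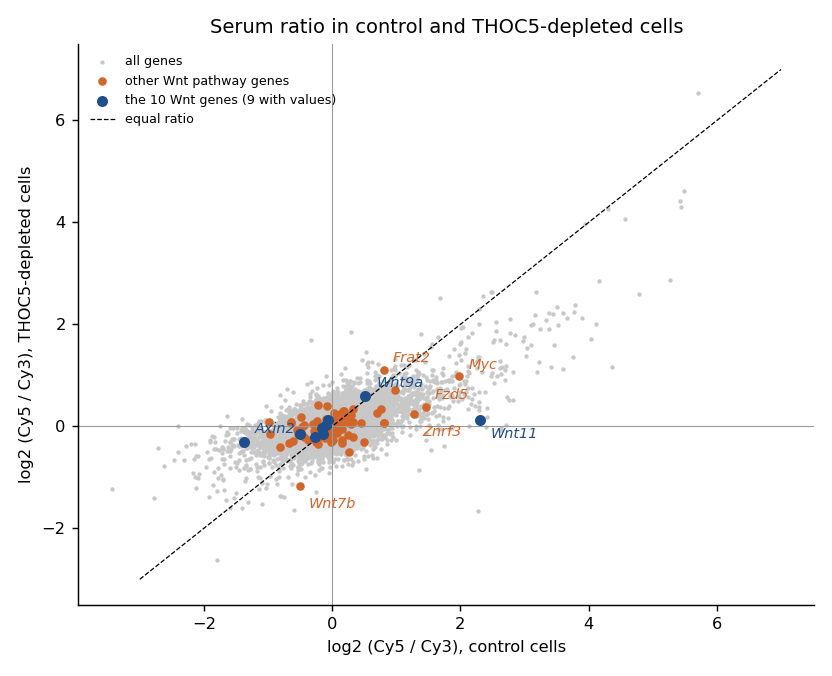
Log2 serum ratio in control cells (x axis) against THOC5-depleted cells (y axis) for each gene well above background in all channels (grey), with the 10 Wnt genes in blue (9 have values) and other Wnt pathway genes in orange. Wnt11 (2.30 and 0.13) lies far right of the line of equal ratios, close to the horizontal axis.

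Wnt9a was the other ligand with a higher signal after serum, and here the ratio was alike on both arrays. The feature (chromosome 11 of mm9, 59146953 to 59147012) read 218 and 312 in control cells and 122 and 184 in THOC5-depleted cells. The log2 serum ratios were 0.52 ± 0.21 and 0.59 ± 0.22, which differ by less than their errors. At the same time both THOC5-depleted signals were the lower ones, with log2 differences of -0.61 ± 0.21 unstimulated and -0.54 ± 0.21 stimulated after scaling between arrays. Of all genes with a value, 5.81% had a lower unstimulated value than Wnt9a.

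Wnt4, a ligand with roles in kidney and gonad development, was the only one of the 5 ligands more than 1.5-fold higher in THOC5-depleted cells. Its feature (chromosome 4 of mm9, 136851690 to 136852258, a span longer than 60 bases) read 50.1 and 48.1 in control cells and 78.9 and 86.4 in THOC5-depleted cells. Both depleted channels lie above both control channels. The log2 difference was 0.83 ± 0.23 unstimulated and 1.02 ± 0.25 stimulated, while the serum ratios were -0.06 ± 0.26 and 0.13 ± 0.22. With normexp background correction, an offset of 50 and loess together, the stimulated difference was 0.74, no longer past 2-fold, and the unstimulated one 0.46.

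Wnt5a and Wnt5b, close relatives that signal largely without beta-catenin, showed little difference between any channels. The Wnt5a feature (chromosome 14, 29336664 to 29336723) read 169.8 and 159 in control cells and 125 and 127 in THOC5-depleted cells. The Wnt5b feature (chromosome 6, 119382550 to 119382609) read 253 and 227 in control cells and 240.5 and 236 in THOC5-depleted cells. None of their 4 serum ratios exceeded its error, with log2 values from -0.16 to 0.03. Between conditions Wnt5a differed by -0.24 ± 0.21 unstimulated and -0.11 ± 0.21 stimulated, and Wnt5b by 0.16 ± 0.21 and 0.29 ± 0.21.

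**Figure D3:**
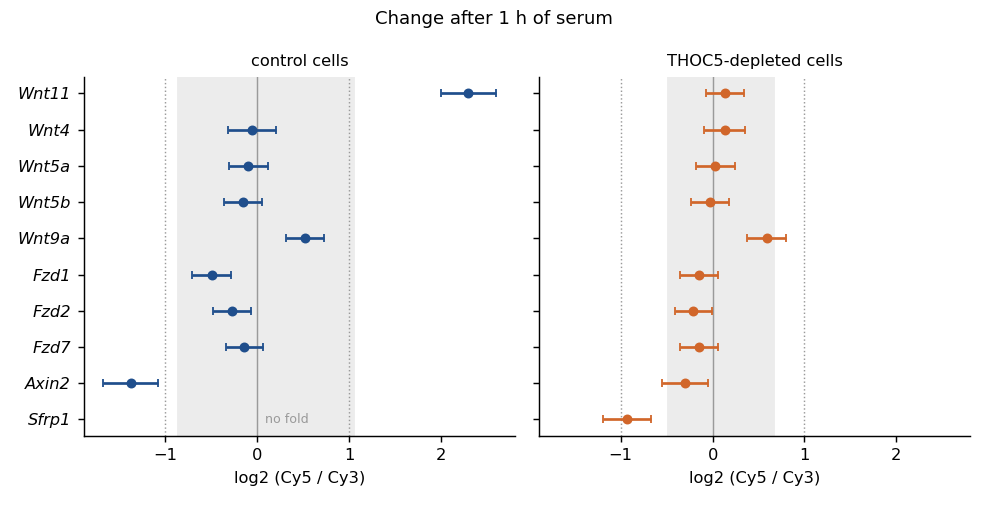
Log2 of Cy5 over Cy3 for the main feature of each gene in control (left) and THOC5-depleted cells (right). Bars are the software's error on 1 array, grey bands hold the central 95% of all genes, dotted lines mark 2-fold, and Wnt11 and Axin2 leave the band in control cells while Sfrp1 leaves it in THOC5-depleted cells.

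The 3 frizzled genes encode membrane receptors that bind Wnt ligands through a cysteine-rich domain. None of their main features passed 2-fold in any comparison, and their log2 values ran from -0.50 to 0.01, several of them within the software's error. Fzd1 (chromosome 5, 4754003 to 4754062) read 2115 and 1499 in control cells and 1290.0 and 1164 in THOC5-depleted cells. Its log2 serum ratio was -0.50 ± 0.21 in control and -0.15 ± 0.20 in THOC5-depleted cells. The control unstimulated channel is the high one, so the conditions differed by -0.39 ± 0.20 unstimulated and by -0.04 ± 0.20 stimulated.

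Fzd2 was read by 2 features whose sequences are given above, and they differed in size of change. The one at base 1868 (chromosome 11, 102467613 to 102467672) read 5795 and 4797 in control cells and 3496 and 3026 in THOC5-depleted cells. The one at base 3300 (102469045 to 102469104) read 206 and 130.3 in control cells and 64.1 and 46.1 in THOC5-depleted cells. Both features are lower in the THOC5-depleted channels. The log2 difference between conditions was -0.40 ± 0.20 unstimulated and -0.33 ± 0.20 stimulated at base 1868. At base 3300 it was -1.50 ± 0.21 and -1.32 ± 0.22, that is 2.83-fold and 2.49-fold lower. The serum ratios were closer, with -0.27 and -0.21 at base 1868 and -0.66 and -0.48 at base 3300, control cells first.

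Fzd7 also has 2 features, and there the one nearer the end of the transcript differed less. At base 2376 (chromosome 1, 59541367 to 59541426) it read 559 and 507 in control cells and 332 and 299.9 in THOC5-depleted cells. At base 4201 (59543192 to 59543251) it read 392 and 412 in control cells and 315 and 306 in THOC5-depleted cells. The log2 difference between conditions was -0.49 ± 0.20 unstimulated and -0.50 ± 0.20 stimulated at base 2376, against -0.07 ± 0.20 and -0.18 ± 0.20 at base 4201. All 4 serum ratios of Fzd7 lay within their errors (-0.15 to 0.07).

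Sfrp1 encodes a secreted protein with a frizzled-like domain that binds Wnt ligands outside the cell. Its signal was low in control cells and higher in THOC5-depleted cells. The feature (chromosome 8 of mm9, 24559438 to 24559497) read 12.1 and 2.81 in control cells, the second not well above background, and 44.9 and 23.5 in THOC5-depleted cells. The unstimulated signal was 4.20-fold higher in THOC5-depleted cells, a log2 difference of 2.07 ± 0.35, the 70th highest of 18973 genes. The control value behind it is close to the dimmest signal that counts as well above background in that channel (11.2), and with normexp correction the difference was 0.92. After serum only the depleted signal was well above background, and it was at least 1.87-fold higher, counted against the lowest control signal well above background. The log2 serum ratio in THOC5-depleted cells was -0.93 ± 0.26, the 84th lowest of 18502 genes, but -0.34 with normexp, the offset and loess together. In control cells no fold is given because the unstimulated signal itself lies under the limit of the Cy5 channel.

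Axin2 encodes a scaffold of the complex that destroys beta-catenin and is itself switched on by beta-catenin. Its main feature (at base 4196, chromosome 11, 108812034 to 108812093) read 61.2 and 23.5 in control cells and 51.4 and 41.8 in THOC5-depleted cells. The stimulated control channel is the low one. The log2 serum ratio was -1.38 ± 0.30 in control cells, a 2.60-fold lower signal, and -0.30 ± 0.25 in THOC5-depleted cells. The serum ratios differed by -1.08 ± 0.39, the 108th lowest value of 17192 genes. Stimulated cells differed by 0.98 ± 0.33 between conditions and unstimulated cells by -0.10 ± 0.23. The feature at base 1971 (108803927 to 108803986) read 2.51 to 3.23, not well above background in any channel, and gives no fold. The Axin2 values moved with the processing. With normexp background correction, an offset of 50 and loess together, the serum ratio was -0.59 in control cells, the difference of the serum ratios was -0.51 and the stimulated difference between conditions was 0.56. With signals below 50 raised to 50, the serum ratio in control cells was -0.29.

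After serum, 2 of the 10 genes passed 2-fold in control cells and 0 of 10 in THOC5-depleted cells. In control cells 1 member was higher (Wnt11), where 2.64% of the 18773 genes tested were, and 1 was lower (Axin2), where 1.74% were. In THOC5-depleted cells no member passed 2-fold, and 0.945% of 18527 genes were higher and 0.378% lower. The ratio of the serum ratios, control over THOC5-depleted, was past 2-fold for 2 of the 9 genes with all channels well above background. It was higher for Wnt11, where 1.16% of 17192 genes were, and lower for Axin2, where 0.814% were. The median log2 serum ratio over the members was -0.14 in control cells and -0.09 after THOC5 depletion, against -0.03 and -0.01 over all genes. With 10 genes, a single gene past the threshold already exceeds these shares, so the counts only name the gene.

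Between conditions, 1 member was higher in unstimulated THOC5-depleted cells (Sfrp1), where 2.25% of 19050 genes were, and 0 were lower, where 2.06% were. In stimulated cells 1 member was higher (Wnt4), where 2.46% of 18665 genes were, and 1 was lower (Wnt11), where 2.27% were. These counts use the main feature of each gene. The Fzd2 feature at base 3300, which they leave out, was 2.83-fold lower unstimulated and 2.49-fold lower stimulated. In unstimulated cells 7 of the 10 members had a value below 0, with a median of -0.23, against 0.00 over all genes. In stimulated cells 6 of 10 were below 0, with a median of -0.07. The members ran from -0.61 (Wnt9a) to 2.07 (Sfrp1) unstimulated and from -2.39 (Wnt11) to 1.02 (Wnt4) stimulated.

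**Figure D4:**
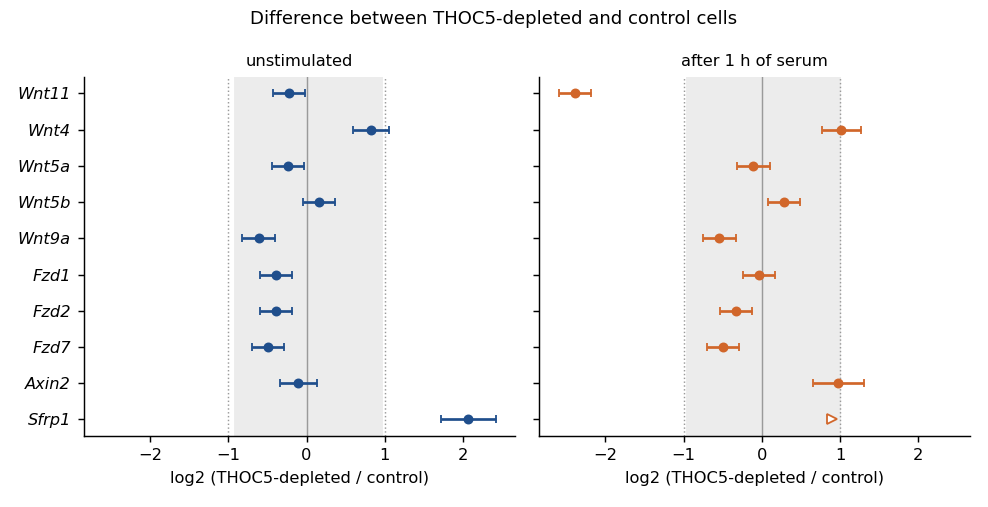
Log2 of THOC5-depleted over control signal for each gene, unstimulated (left) and after 1 h of serum (right), after scaling between arrays. Bars are the software's errors, grey bands hold the central 95% of all genes, and the open triangle is the lower bound for Sfrp1. Sfrp1 (2.07) leaves the band unstimulated, and Wnt11 (-2.39) and Wnt4 (1.02) leave it after serum.

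The wider pathway was read from 8 lists with 115 symbols, 114 of them on the array and 21 of these not well above background in any channel. The lists include the members, so the counts below hold again the member genes counted above. Over all lists, 4 genes were past 2-fold higher after serum in control cells and 1 was lower, of 93 tested, where 2.64% and 1.74% of all genes were. In THOC5-depleted cells 1 was higher and 1 was lower, of 90, where 0.945% and 0.378% of all genes were. Between conditions, 4 were higher and 3 lower of 93 in unstimulated cells, where 2.25% and 2.06% of all genes were, and 4 were higher and 3 lower of 92 in stimulated cells, where 2.46% and 2.27% were. The medians over the lists (0.00 and 0.03 for serum in control and THOC5-depleted cells, and -0.05 and -0.07 for unstimulated and stimulated THOC5-depleted over control cells) lay near those of all genes.

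Among receptors and their regulators, 2 of 18 tested genes were past 2-fold higher after serum in control cells, where 2.64% of all genes were. Fzd5, a receptor, read 45.8 and 126 in control cells and 47.1 and 61.7 in THOC5-depleted cells, serum ratios of 2.75 and 1.31. Znrf3, a membrane ubiquitin ligase that removes frizzled receptors, read 47.3 and 114 in control cells and 86.5 and 102 in THOC5-depleted cells, ratios of 2.41 and 1.18. Rnf43, a ligase of the same kind and like Znrf3 also counted among the target genes, was 2.41-fold higher in unstimulated and 3.37-fold higher in stimulated THOC5-depleted cells. Its signals were dim, at 30.3 and 20.7 in control cells and 65.8 and 63.0 in THOC5-depleted cells. Unstimulated Znrf3 was 2.06-fold higher.

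Of the 9 tested secreted inhibitors and enhancers, 3 were past 2-fold lower in unstimulated THOC5-depleted cells, where 2.06% of all genes were, and 1, Sfrp1, was higher, where 2.25% were. Sfrp2, a relative of Sfrp1, read 61.5 and 40.4 in control cells and 17.98 and 14.8 in THOC5-depleted cells, and was 3.07-fold lower unstimulated and 2.46-fold lower stimulated. Rspo2 and Rspo3, R-spondins that enhance Wnt signals by holding off Znrf3 and Rnf43, were 2.42-fold and 2.09-fold lower unstimulated. Dkk2, a protein that binds the Lrp coreceptors, was 1.73-fold lower unstimulated and 2.94-fold lower stimulated. The median over this list was -0.72 on the log2 scale unstimulated and -0.54 stimulated. Apart from Rspo2, the tested genes of this list read at most 108 in any channel, and the values of the listed genes that are not among the 10 were not recomputed with another background correction or with low signals raised.

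Genes of the other lists past 2-fold are given next. Of 15 tested target genes, 2 (Znrf3 and Myc) were higher after serum in control cells and 1 (Axin2) was lower, where 2.64% and 1.74% of all genes were. Among 22 tested intracellular components, Frat2, which binds the kinase GSK3, was 2.16-fold higher after serum in THOC5-depleted cells and 1.75-fold higher in control cells. Its relative Frat1 was 2.26-fold higher in stimulated THOC5-depleted than control cells, from signals of 38.8 and 19.0. In the planar polarity list of 9 genes, Prickle1 was 2.27-fold higher in stimulated THOC5-depleted cells, with a control signal of 1883 that was 959 after serum. Celsr3 was 2.13-fold higher unstimulated, from signals of 24.9 in THOC5-depleted and 13.1 in control cells. That control signal is close to the dimmest one well above background in its channel (11.2). The ligand Wnt7b read 30.8 and 13.6 in THOC5-depleted cells, 2.26-fold lower after serum. Myc, a target gene that also responds to serum by other routes, was 3.95-fold higher after serum in control and 1.98-fold in THOC5-depleted cells. No nuclear factor of 12 and no gene of ligand release of 3 passed 2-fold in any comparison, and the members named by the rule on signal (Pygo2, Tle3, Wls and Notum) had log2 values from -0.48 to 0.30.

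**Figure D5:**
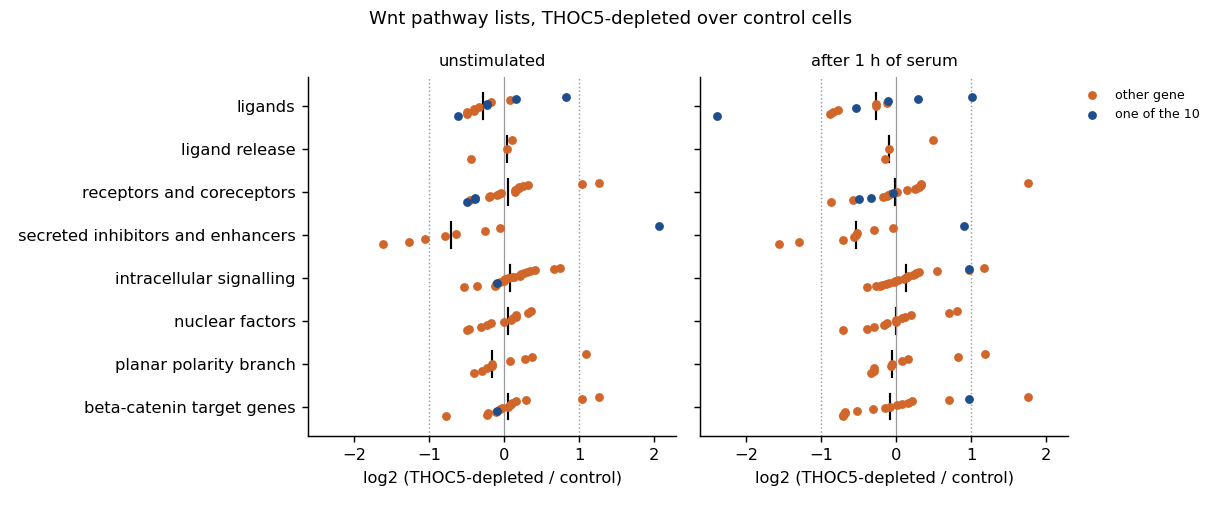
Log2 of THOC5-depleted over control signal for every gene of the 8 Wnt pathway lists with a value, unstimulated (left) and after serum (right), with the 10 genes in blue, others in orange, medians as black bars and dotted lines at 2-fold. The secreted inhibitors and enhancers have medians of -0.72 and -0.54, with Sfrp1 (a lower bound after serum) as the highest gene of that list in both panels.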

How the data were processed

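Wnt genes were read from 2 dual-color Agilent arrays, 1 for each condition. The authors deposited the output of Agilent Feature Extraction 10.7.3.1, which places features on mm9. According to these files' headers, each deposited processed signal is an intensity from which background was subtracted and whose dyes were balanced (linear and LOWESS) within the array, with no scaling between arrays. The authors' log10 ratios and log10 errors were read from the same files. The authors' table for the series holds the size of the log10 ratio without its sign and served only as an alternative. No aligner applies, and the number of columns not mapped to a sample is 0. The cRNA was made from total RNA, so that a signal reports the labelled RNA at the place of its feature.

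The 10 genes, the pathway lists, the markers and the thresholds were chosen with earlier results of these data known. Outlier spots were left out, spots of a feature were averaged as log2, and the feature with the highest mean signal stood for its gene. A channel counted as well above background by the software's flag. Where only 1 of the compared signals was, the ratio is a bound against the lowest signal well above background, and the ratio of serum ratios needed all 4 channels. Arrays were scaled with limma 3.58.1 (Aquantile) in R 4.3.3. Other steps used Python 3.11.15, pandas 2.3.3, numpy 2.4.6 and matplotlib 3.10.9. The software's errors were combined in quadrature. All accessions of the 13 features had the same symbol in RefSeq. Named genes are all 10 members, and from each list the genes past 2-fold in any comparison (up to 5, largest first) or otherwise the 2 brightest, Thoc5, and the 5 genes nearest to Wnt11. The steps were tested on simulated data. Of the spots on each array, 62.1% to 64.4% were well above background, and the number of arrays limits precision. Alternatives were normexp with an offset of 50 and loess, no dye normalization, a floor of 50, means over features, 1.5-fold, both channels above background, outliers kept, the authors' table, a common spread, the spike-in mean, scaling at the 75th percentile and quantile normalization.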

Additional observations from a re-analysis of the deposited data

Results flagged for a closer look

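The log2 serum ratio of 2 members lay on opposite sides of 0 in the 2 conditions. For Wnt4 it was -0.06 in control and 0.13 in THOC5-depleted cells, a difference of -0.19 (software error 0.34). For Wnt5a it was -0.10 and 0.03, a difference of -0.13 (0.30). Both differences are smaller than the error that the software gives, and with 1 array for each condition neither difference was tested.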

How the results depend on the processing

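The 5 counts of members past 2-fold had 40 alternative values, of which 14 differed from the main count by more than 1.5 times. The 5 medians had 35, of which 1 changed sign: the median ratio of serum ratios was -0.13, and 0.12 with the spike-in mean subtracted. No gene past 2-fold changed its direction. Serum in control cells moved 1 member in place of 2 with normexp, an offset of 50 and loess together, or with signals raised to 50. The ratio of serum ratios moved 1 in place of 2 with these settings, with log ratios scaled to one spread, or with the spike-in mean subtracted. The gene that stayed was Wnt11 and the gene lost was Axin2. At 1.5-fold the counts were 2 for serum in THOC5-depleted cells, 3 for unstimulated and 4 for stimulated THOC5-depleted over control cells, where 3.46% of all genes were higher and 1.57% lower, 6.32% and 6.22%, and 7.31% and 6.49%. The unstimulated count was 0 in place of 1 with normexp, the offset and loess together, or with signals raised to 50. The stimulated count was 4 with 75th percentile scaling, where Axin2 and Sfrp1 also passed. It was 1 with normexp, the offset and loess together, or with signals raised to 50. Wnt11 kept a log2 serum ratio of 2.11 to 2.30 in control and 0.09 to 0.15 in THOC5-depleted cells, a ratio of serum ratios of 1.73 to 2.41 and a stimulated difference of -2.39 to -2.14. Dim genes moved most: the Axin2 serum ratio in control cells ran from -1.40 to -0.29 and its stimulated difference from 0.00 to 1.11, unstimulated Sfrp1 from 0.00 to 2.18 and its serum ratio in THOC5-depleted cells from -0.94 to 0.00, since its signals lie under the floor of 50. With means over features, Fzd2 differed between conditions by -0.95 unstimulated and -0.82 stimulated, against -0.40 and -0.33 for its main feature. Subtracting the spike-in mean moved the median of all genes in the ratio of serum ratios by 0.24. The cause of the other moves was not tested. No paired analysis was possible because each condition has 1 array.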
